A study of Mus musculus with 2 samples.

Results

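The imprinted Dlk1-Meg3 cluster was described through 4 genes, Dlk1, Meg3, Rian and Mirg, taken by symbol from the 40276 features counted in 2 sections of mouse tissue. The tissues were a normal brain and a normal heart, both fixed in formalin and embedded in paraffin, cut at 5 µm and read by Spatial Random-seq, which copies total RNA in place with random primers and tags it by spot. Both sections were reverse transcribed with a primer that the labels give as lacking cell barcode 2, and the labels name no strain, age, sex or treatment of the animals. Each tissue was 1 library (n = 1), so the differences below lack any check by replicates and were not tested for significance. All intervals are exact 95% intervals for counting error only. They hold if every count is its own molecule, and the sources leave that unstated.

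The cluster lies on mouse chromosome 12. Dlk1, a transmembrane protein related to the ligands of Notch receptors, is known to be read from the paternal chromosome, as are Rtl1 and Dio3. Meg3, Rian and Mirg are non-coding RNAs known to be read from the maternal chromosome in the same direction, and Rian and Mirg host small nucleolar RNAs and microRNAs. A methylated control region between Dlk1 and Meg3 sets this parental pattern, which is known for its part in growth, fat tissue and brain. The counts were not assigned to parental alleles, so "paternal" and "maternal" below are names taken from this background, not measurements.

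The start regions of the paternal protein-coding gene and of the first maternal RNA are shown because the results turn on the contrast of these genes. Each runs from 250 bases before to 50 bases after the annotated start on the plus strand in RefSeq (build GRCm38.p6), Dlk1 at chr12:109452573-109452872 and Meg3 at chr12:109540746-109541045. Capitals mark the motif TATAAA, the motif CCAAT and the motif TGACGTCA, each searched on both strands.
Dlk1: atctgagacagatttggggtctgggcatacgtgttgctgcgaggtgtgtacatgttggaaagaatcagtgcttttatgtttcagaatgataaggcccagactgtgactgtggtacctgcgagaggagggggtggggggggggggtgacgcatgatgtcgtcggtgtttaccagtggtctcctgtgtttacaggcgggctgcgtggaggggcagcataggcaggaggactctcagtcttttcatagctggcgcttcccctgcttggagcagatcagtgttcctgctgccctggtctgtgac
Meg3: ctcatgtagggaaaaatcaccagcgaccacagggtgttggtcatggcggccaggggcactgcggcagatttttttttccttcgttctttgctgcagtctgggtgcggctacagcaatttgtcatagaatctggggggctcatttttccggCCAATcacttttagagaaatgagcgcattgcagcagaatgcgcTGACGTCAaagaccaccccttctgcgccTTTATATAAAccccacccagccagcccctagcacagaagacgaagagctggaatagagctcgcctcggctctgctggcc
The Meg3 window held all 3 motifs, with TATAAA found once on each strand in overlap. The Dlk1 window held none of the 3. Of 32851 such windows, 13.6% held TATAAA, 37.4% held CCAAT and 1.79% held TGACGTCA, the sequence known as the cAMP response element. The Meg3 window had 13 CG pairs and the Dlk1 window 9, against a median of 7 over all windows. A further annotated Meg3 start has its window at chr12:109545148-109545447, which is not shown. That window held none of the 3 motifs and had 1 CG pair.

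Sequencing gave 37300503 counts in brain and 44768698 in heart, and all 4992 spot barcodes on the list of each library were shared by both. Spots with at least 500 counts and 200 features were kept, which left 4080 brain spots and 3726 heart spots with medians of 5981 and 9049.5 counts. Ribosomal, mitochondrial and small structured RNA took 38.1% of the kept brain counts and 59.4% of the kept heart counts. Pan-neuronal genes were at least 4-fold higher in brain for 12 of 12 tested, and cardiomyocyte genes at least 4-fold lower in brain for 10 of 10. Of all 6345 features tested, 17.2% were called higher in brain and 5.41% lower. Most of the listed genes were abundant enough for the test in a single section and could be called in that direction only. Snap25, for example, had 27959 counts in brain and 278 in heart, and Myh6 had 86 in brain and 184092 in heart. Some, such as Syt1 and Ttn, were abundant enough in both sections. A spot covers a small area that can hold several cells, and in such sums fewer cells of a type and less RNA per cell cannot be told apart.

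All 4 genes had more CPM (counts per 1000000 counts of the section) in brain than in heart, by very different factors. Meg3 had 72563 counts in brain and 569 in heart, which was 1954 CPM (1939 to 1968) in brain and 12.8 CPM (11.7 to 13.8) in heart. The ratio of 153 (141 to 167) placed Meg3 8th of the 6279 features tested outside structured RNA, and Meg3 was the 11th most abundant of the 32082 such features detected in brain. Rian had 17954 counts in brain and 640 in heart, or 483 CPM (476 to 490) in brain and 14.3 CPM (13.3 to 15.5) in heart, a 33.7-fold ratio (31.1 to 36.5). Mirg had 1845 counts in brain and 133 in heart, or 49.7 CPM (47.4 to 52.0) in brain and 2.98 CPM (2.50 to 3.53) in heart, a 16.7-fold ratio (13.97 to 20.02). The brain-to-heart ratios of the 3 maternal RNAs thus stood in the order Meg3, Rian, Mirg, and their intervals did not overlap.

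Dlk1 was the rarest of the 4, with 422 counts in brain and 60 in heart. That was 11.4 CPM (10.3 to 12.5) in brain and 1.34 CPM (1.03 to 1.73) in heart, an 8.45-fold ratio (6.43 to 11.3). The rule of size was a difference of 4-fold or more and a brain level of 20 CPM or more. By this rule 3 of 4 members were called higher in brain, against 17.2% of 6345 features tested. None was called lower, against 5.41%, but the 3 called members reached 20 CPM in brain alone and could not have been called lower. Dlk1 was above the 4-fold but below 20 CPM in both sections, so it was not among the features tested. With a floor of 5 CPM all 4 passed, against 11.4% of 13027 features.

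**Figure D1:**
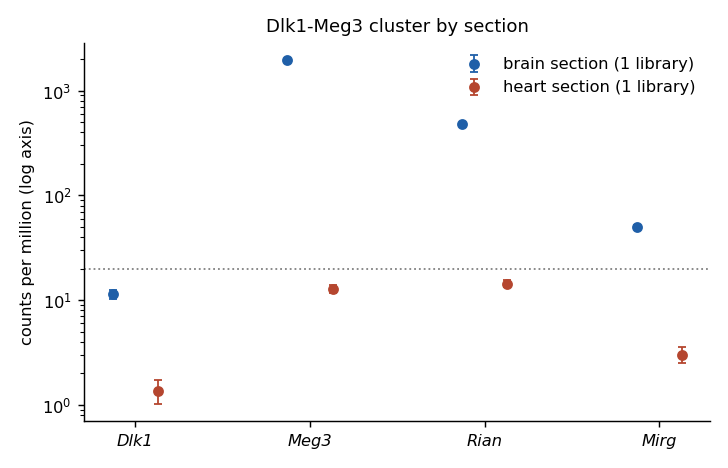
CPM of the 4 genes in the brain section (left of each pair, blue) and the heart section (red), 1 library each, on a log axis, with 95% Poisson intervals for counting error and a dotted line at 20 CPM. Meg3 spans 1954 CPM in brain to 12.8 CPM in heart, and Dlk1 is the only one of the 4 below 20 CPM in brain.

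How far each value stood above stray counts was gauged from 1464 olfactory and vomeronasal receptor genes, which are mainly used in the sensory lining of the nose. They carried 2.49 counts per kb of gene span in brain and 3.86 in heart. Against that density, Meg3 was 948 times higher in brain and 4.798 times higher in heart, Rian 125 times in brain and 2.87 times in heart, Mirg 37.6 times in brain and 1.75 times in heart, and Dlk1 16.1 times in brain and 1.48 times in heart. The heart values of Dlk1 and Mirg were therefore close to the level of these receptor genes. Per kb of span, the scale on which genes of different length can be set side by side, the brain levels were 63.6 CPM for Meg3, 8.37 for Rian, 2.52 for Mirg and 1.08 for Dlk1.

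At an equal depth of 2800 counts per spot, which 3060 brain spots and 2939 heart spots reached, Meg3 was counted in 95.8% of brain spots (95.0 to 96.5) and 3.37% of heart spots (2.75 to 4.09). Its median was 5 counts per brain spot, with a lowest of 0 and a highest of 23, and 0 per heart spot, with a highest of 2. Rian was counted in 70.1% of brain spots and 3.33% of heart spots, Mirg in 12.9% of brain spots and 0.851% of heart spots, and Dlk1 in 2.84% of brain spots and 0.408% of heart spots. Without thinning, Meg3 was counted in 93.2% of brain spots and 10.8% of heart spots, and Dlk1 in 6.005% of brain spots and 1.503% of heart spots. Meg3 was thus near ubiquitous over the brain section, whereas Dlk1 was counted in few spots. The variance of Meg3 over thinned brain spots was 2.63 times its mean, against a median of 1.30 for the 555 features of at least 0.5 counts per spot, of which 21 had a higher ratio.

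The maternal RNAs outnumbered Dlk1 in both sections. There were 92362 maternal counts to 422 Dlk1 counts in brain, or 219 per Dlk1 count (199 to 241), and 1342 to 60 in heart, or 22.4 (17.3 to 29.5). Per kb of span the excess was 68.9 in brain and 6.37 in heart. The receptor density alone would give Dlk1 26.2 of its 422 counts in brain and 40.6 of its 60 in heart. With that density subtracted there were 233 maternal counts per Dlk1 count in brain. The heart ratio rests on a Dlk1 value close to stray counts, so the size of the difference between the tissues is uncertain. The make-up of the maternal RNAs also differed between the tissues. Rian had 0.247 counts per Meg3 count in brain (0.243 to 0.252) and 1.12 in heart (1.003 to 1.26), so Meg3 was the most counted member in brain and Rian in heart. Mirg had 0.0254 counts per Meg3 count in brain (0.0243 to 0.0266) and 0.234 in heart (0.192 to 0.283). After the receptor density was subtracted, Rian had 0.246 per Meg3 count in brain and 0.926 in heart, so the order of the pair in heart turned round, and Mirg had 0.0248 in brain and 0.126 in heart. In all, the 4 genes made up 0.250% of the kept brain counts and 0.00314% of the kept heart counts.

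Within the brain section, spots were put into 12 groups by expression, with the cluster and all listed genes left out of the grouping. These groups are called regions here, named by number and by their leading genes, and were not placed on the tissue. Region 1, led by Zcchc12, 6330403K07Rik and Gabrg1, held 745 spots. All 7 of the 7 tested genes of a hypothalamus list were at least 2-fold higher there than in the rest, against 3.07% of 6021 features tested. Only Ahi1, at 429 CPM in region 1 and 127 CPM in the rest, passed the 20 CPM floor in both. The others passed it through region 1 alone and could not be called lower, such as the neuropeptide gene Pmch at 317 CPM and 2.56 CPM and Hap1 at 122 CPM and 13.5 CPM. Over all 14 listed genes, tested or not, the median fold was 17.1 and the lowest 1.30, for Agrp. The summed level of the 14 listed hypothalamus genes was 1187 CPM in region 1 and 94.2 to 316 CPM in the other regions. Since spots within a section are not replicates, the region values are descriptions.

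Dlk1 counts lay mostly in region 1. Region 1 held 353 of the 422 counts, 83.6%, in 13.8% of the section's counts. Dlk1 had 68.7 CPM (61.7 to 76.3) in region 1 and 2.16 CPM (1.68 to 2.73) in the rest of the section, a 31.9-fold difference (24.6 to 41.9) that ranked 5th among 5956 features. The next levels were 9.42 CPM (5.67 to 14.7, 19 counts) in region 6, led by Sostdc1, Ogn and Slc13a4, and 6.82 CPM (2.50 to 14.9, 6 counts) in region 4. The remaining regions with counts lay between 0.590 and 4.51 CPM, and region 12 had no count, which allows up to 3.23 CPM by a floor of 3 counts and up to 3.98 CPM by the exact interval. Of the 11 neighbouring pairs in this order, 10 had overlapping intervals, the pair of region 1 and region 6 being the exception. Dlk1 was 101 times the receptor density in region 1 and 3.04 times in the rest of the section.

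Dlk1 counts per spot were low also inside region 1. Over the whole section 245 spots had a Dlk1 count, 172 of them a single one. The 11 spots with 5 or more counts, up to 15, were all in region 1 and carried 22.3% of all Dlk1 counts. These were deep spots, with a median of 36459 counts against 5129 over region 1, and at equal depth no spot of region 1 had more than 2 Dlk1 counts. At equal depth, all 87 spots with a Dlk1 count also had a count of a maternal RNA, but so did 97.6% of all 3060 spots, so this overlap says little about Dlk1. With region 1 left out, an alternative chosen after the data were seen, the brain-to-heart ratio of Dlk1 was 1.60 (1.12 to 2.30). The same ratio was 134 for Meg3, 31.7 for Rian and 15.3 for Mirg.

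Meg3 was highest in the same region but present in all. It had 3467 CPM (3416 to 3518) in region 1 and 1711 CPM (1696 to 1725) in the rest, a 2.03-fold difference (1.99 to 2.06) just past the 2-fold rule, and 1.88-fold with a coarser grouping at a resolution of 0.3. Of 6021 features tested in region 1, 3.07% were called higher, and among the members these were Dlk1 and Meg3. Dlk1 passed the 20 CPM floor through region 1 alone and could not have been called lower. Region 3, led by Shox2, Synpo2 and Amotl1 and high in thalamus genes, followed with 2500 CPM (2458 to 2543). The lowest levels were 817 CPM in region 11, led by Maml2, Slc29a4 and Bhlhe22, and 523 CPM (492 to 556) in region 6, the second 6.63-fold below region 1. Of the 11 neighbouring pairs in the Meg3 order, 4 had overlapping intervals.

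Rian and Mirg were also highest in regions 1 and 3 and lowest in region 6, over a narrower range, with other regions between in another order. Rian had 663 CPM (641 to 686) in region 1, 620 CPM (599 to 642) in region 3 and 151 CPM (135 to 169) in region 6. Mirg had 75.5 CPM (68.2 to 83.4) in region 1, 66.5 CPM (59.7 to 73.8) in region 3 and 22.3 CPM (16.3 to 29.9) in region 6. Region 1 was 1.46-fold over the rest for Rian and 1.66-fold for Mirg, and neither was called. All 3 maternal RNAs were called lower in region 6, where 10.4% of 6687 features were. Meg3 and Mirg were also called lower in region 11, with 817 CPM of Meg3 and 22.9 CPM of Mirg, where 6.73% of features were. Mirg was called lower in region 5 as well, led by Six3, Tmem88b and Ermn and high in myelin genes, with 24.8 CPM, where 5.46% of features were. In region 6 the choroid plexus list summed to 5230 CPM, against 42.6 to 401 CPM in the other regions, the meninges list to 1176 CPM, against 15.3 to 288 CPM, and the pan-neuronal list to 1536 CPM, against 2700 to 5259 CPM. The part of these cell types in the lower maternal level of region 6 was not tested.

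**Figure D2:**
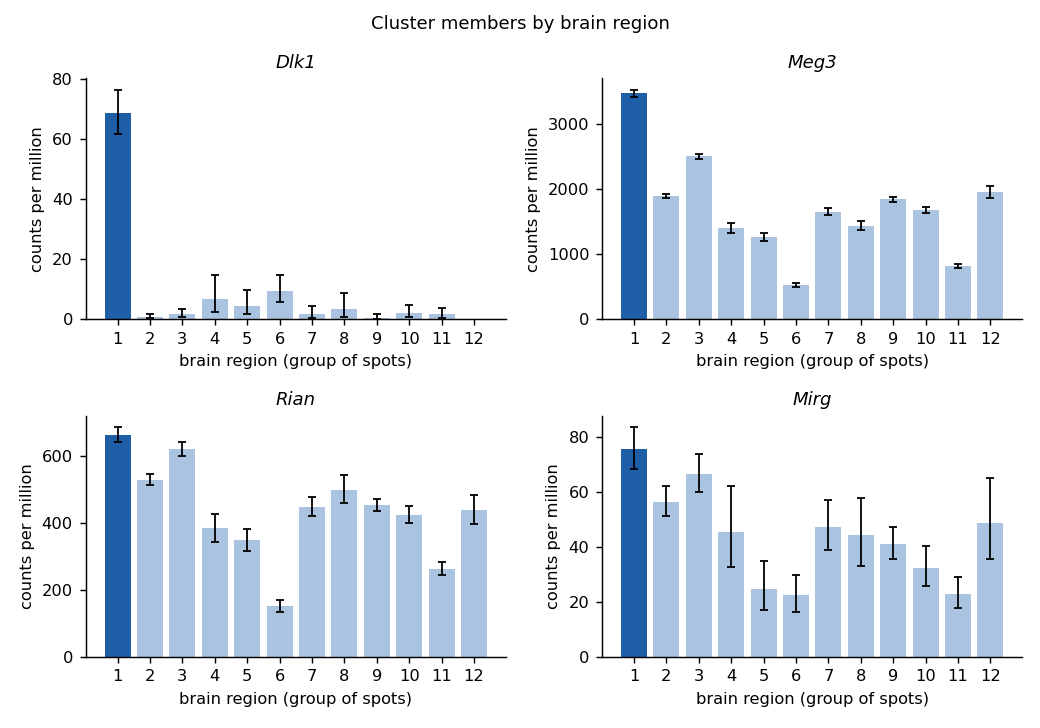
CPM of Dlk1, Meg3, Rian and Mirg in the 12 brain regions, which are groups of spots by expression, with 95% Poisson intervals and region 1 in dark blue. Dlk1 stands at 68.7 CPM in region 1 and below 10 CPM elsewhere, while the 3 maternal RNAs are present in every region and lowest in region 6.

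Across the 12 regions the maternal RNAs stood in a similar order, and Dlk1 in another. Pearson's r of log2(CPM + 10) was 0.96 for Meg3 and Rian, 0.89 for Meg3 and Mirg and 0.87 for Rian and Mirg, over 12 groups of spots from 1 library. For Dlk1 and Meg3 it was 0.28 with a Spearman rho of -0.27, and r was -0.69 without region 1. These points share 1 section, and the low Dlk1 levels outside region 1 rest on 69 counts. Meg3 had 0.977 counts per count of the 12 pan-neuronal genes in region 1, and 0.201 to 0.653 in the other regions. This ratio depends on which genes carry the sum, and they went both ways in region 1, with a median fold of 0.880. Syt1 and Snap25, the 2 with the most CPM in brain, were 0.605-fold and 0.570-fold over the rest there, and Map2 was 1.45-fold. The part of neuron content in the Meg3 levels was not tested.

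The balance among the maternal RNAs varied less than their levels. Rian per Meg3 count was lowest in region 1 at 0.191 (0.184 to 0.199) and highest in region 8, led by Htr1b, Meis2 and Gpr83 and high in striatum genes, at 0.347 (0.316 to 0.382). Mirg per Meg3 count lay between 0.0193 in region 10 and 0.0427 in region 6. The count of maternal RNA per Dlk1 count ran from 61.2 (55.1 to 68.2) in region 1 and 73.9 (47.2 to 123) in region 6 up to 3968 in region 9, led by 4921539H07Rik, Ctxnd1 and Gpr161, where Dlk1 had only 3 counts.

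**Figure D3:**
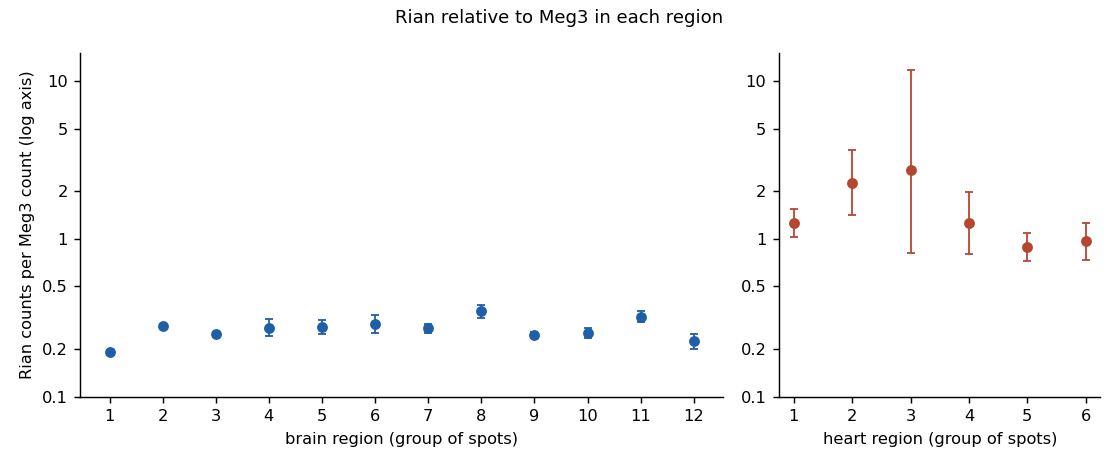
Rian counts per Meg3 count in the 12 brain regions (left) and 6 heart regions (right) on a log axis, with 95% intervals for counting error. Every brain region lies between 0.191 and 0.347, and every heart region between 0.885 and 2.75. The 2.75, in heart region 3, rests on 11 Rian and 4 Meg3 counts, with an interval of 0.815 to 11.8. Rian and Meg3 there were only 2.63 and 1.80 times the density of the receptor genes. In the other heart regions Rian was 1.56 to 5.23 times and Meg3 2.32 to 11.1 times that density. Stray counts thus weigh on the heart ratios, least in region 5.

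The features whose levels across the 12 regions were most like each member were taken from 2655 non-member features of at least 50 CPM in brain. For Rian and Mirg the nearest was B830012L14Rik, a long non-coding RNA of the same locus, with r of 0.97 and 0.89, followed by Ppm1a, Eno2, Clstn3 and Prkar1a for Rian and by Syt4, Ap1b1, Dzank1 and Ppm1a for Mirg. For Meg3 they were Prkar1a (r = 0.94), Syt4, B830012L14Rik, Usp9x and Uhmk1. For Dlk1 they were Nhs (r = 0.78), Nova1, Ghr, Fndc3a and Maged1, of which Ghr encodes the growth hormone receptor.

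Region 1 was grouped again, after the data were seen, into 5 sub-regions. Dlk1 was highest in sub-region 4, led by Caprin2, Acss3 and Stk32a, with 113 CPM (95.5 to 133). It had 82.1 CPM (67.4 to 99.2) in sub-region 1, an interval that overlaps that of sub-region 4. Dlk1 had 56.6 CPM in sub-region 3, 36.2 CPM in sub-region 5 and 24.3 CPM (15.4 to 36.4) in sub-region 2. Sub-region 4 also held most of the vasopressin gene Avp, at 432 CPM against at most 35.0 CPM in the others, and of the oxytocin gene Oxt, at 56.5 CPM against at most 7.61 CPM. Avp and Oxt were named after their values were seen, and some other listed hypothalamus genes were not highest there. Pmch had 27.9 CPM in sub-region 4 and 1159 CPM in sub-region 3. Ahi1 had 417 CPM in sub-region 4 and 561 CPM in sub-region 5, and Hap1 had 124 and 160 CPM. Meg3 ran close to the opposite way to Dlk1. It had 2508 CPM (2422 to 2596) in sub-region 4, its lowest, and 4668 CPM (4505 to 4836) in sub-region 5, led by Hmcn2, Camk1g and Gpr149, its highest. Rian and Mirg likewise had their lowest values in sub-region 4, at 564 CPM (524 to 607) and 52.7 CPM (40.9 to 66.8). Both of these intervals overlapped those of sub-region 1. Their highest values were in sub-region 5, at 868 CPM (798 to 942) and 96.6 CPM (74.4 to 123), and that of Mirg overlapped sub-region 2 (65.9 to 104). Over the 582 single spots of region 1 at equal depth, r between Dlk1 and Meg3 counts was 0.00, where sparse Dlk1 counts limit any relation.

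**Figure D4:**
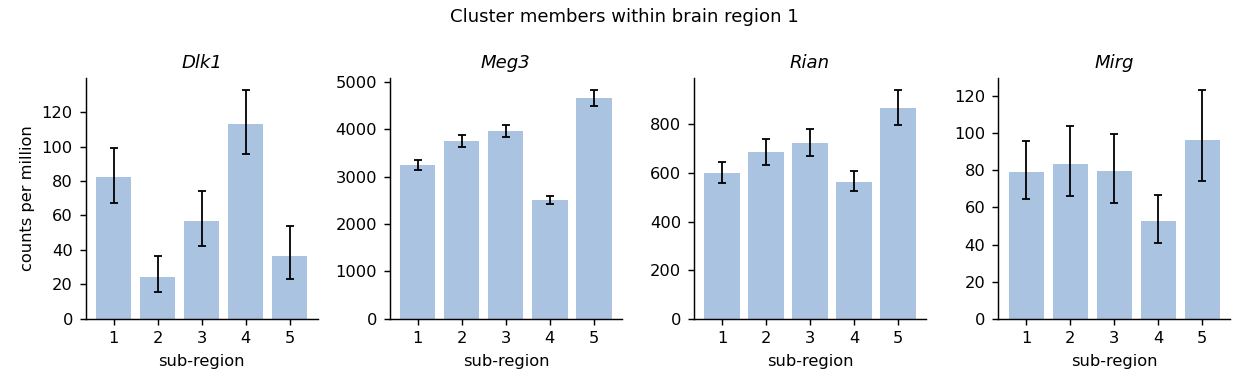
CPM of the 4 genes in the 5 sub-regions of brain region 1, with 95% Poisson intervals. Dlk1 is highest and the 3 maternal RNAs are lowest in sub-region 4, and the maternal RNAs are highest in sub-region 5. The sub-region 4 intervals of Dlk1, Rian and Mirg overlap those of sub-region 1, and the sub-region 5 interval of Mirg overlaps that of sub-region 2.

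The deposited feature list holds 110 features from Dlk1 to Dio3, 18 of which the annotation used here does not hold, so that their place was not checked. Of the 110, 46 had brain counts, 34 had heart counts and 15 had at least 20 counts in a section. The 4 members took 96.4% of the locus counts in brain and 56.1% in heart. B830012L14Rik, which lies between Rian and Mirg, had 2635 counts in brain and 206 in heart, or 70.9 CPM in brain and 4.62 CPM in heart, a 15.4-fold ratio (13.3 to 17.8). The other paternal genes were rare. Rtl1, a gene derived from a retrotransposon, had 81 counts in brain and 55 in heart, a 1.77-fold ratio (1.24 to 2.54). Dio3, which encodes a thyroid hormone-inactivating deiodinase, had 50 counts in brain and 26 in heart, a 2.31-fold ratio (1.41 to 3.87). Rtl1 had 6.23 CPM in region 1 and 1.53 CPM in the rest, a 4.07-fold difference, but it lies antisense to the maternal RNAs, and without a stated strand setting its counts cannot be told apart from theirs. The long non-coding RNAs Gm34081, Gm34667, Gm34719, 3110009F21Rik, Gm34785 and Gm40576, annotated on the minus strand, had brain-to-heart ratios of 0.60 to 1.03, against 15.4 and more for the maternal RNAs on the plus strand. These minus-strand RNAs stood at only 0.812 to 2.10 times the receptor density in brain and 0.968 to 2.01 times in heart. Their ratios may thus be those of stray counts, and they give no contrast of expression between the strands.

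**Figure D5:**
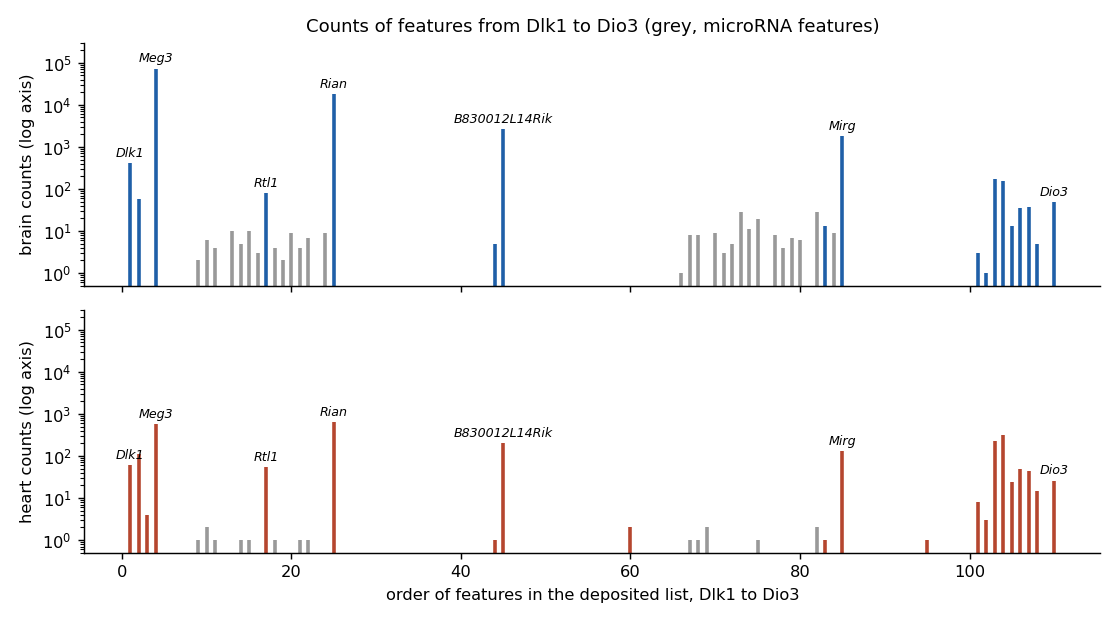
Counts of each feature in the order of the deposited list from Dlk1 to Dio3, in brain (above) and heart (below), on log axes with microRNA features in grey. Meg3 and Rian stand highest in brain, and features without a count have no line.

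The 61 microRNA features of the locus had 229 counts in brain and 16 in heart, a 17.2-fold ratio (10.4 to 30.6), close to that of Mirg. The 19 that lie inside a member on its strand had no count in either section, and how reads in overlapping features were counted is not stated. The 6 that lie inside Rtl1 on the other strand had 35 counts in brain and 3 in heart. Counts on a microRNA feature do not separate the mature form, its precursor and the host RNA. The mature sequences of the 4 most counted features are shown from RefSeq (GRCm38.p6) to show what these features encode, with the seed, bases 2 to 8, in capitals.
mmu-miR-376c-5p: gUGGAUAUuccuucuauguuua
mmu-miR-376b-5p: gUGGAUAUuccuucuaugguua
mmu-miR-376b-3p: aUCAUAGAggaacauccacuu
mmu-miR-539-5p: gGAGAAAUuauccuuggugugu
mmu-miR-654-5p: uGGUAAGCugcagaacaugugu
mmu-miR-654-3p: uAUGUCUGcugaccaucaccuu
Mir376c had 28 counts in brain and 0 in heart, Mir539 had 28 in brain and 2 in heart, Mir376b had 19 in brain and 1 in heart, and Mir654 had 11 in brain and 0 in heart. miR-376c-5p and miR-376b-5p share a seed, and the other shown seeds differ. Of the 114 mature sequences matched to the 61 features, 104 seeds were distinct. Of the 18 small nucleolar RNA features, 1 had brain counts, 5 in all.

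Few of the genes flanking the imprinted domain could be tested. Of the 16 listed, 8 could be tested between the sections and 1, the chaperone gene Hsp90aa1, was called higher in brain, at 8.89-fold, against 17.2% of all features. None of 9 tested was called higher in region 1, against 3.07%, or lower, against 4.43%, so with so few genes neither count stands apart from the shares over all features. Evl had 70.9 CPM in region 1 and 56.2 CPM in the rest, Wdr25 had 23.9 CPM and 18.2 CPM, and Begain, the neighbour that codes for a neuronal guanylate kinase-associated protein, had 25.1 CPM and 15.2 CPM. Begain had 16.6 CPM in brain and 3.41 CPM in heart, a 4.86-fold ratio (4.06 to 5.84) under the 20 CPM floor. The median log2 fold of the flanking list in region 1 was -0.07, against 0.02 over all features tested.

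Other imprinted genes, listed with earlier results of these data known, were called higher in region 1 for most of those tested. Of 22 listed, 19 had counts in brain, and 15 could be tested in region 1. There 9 were called higher and none lower, against 3.07% and 4.43% of all features tested, and the list's median log2 fold was 1.85, against 0.02 over all features tested. Peg3, a paternally expressed zinc finger gene, had 543 CPM in region 1 and 175 CPM in the rest, a 3.10-fold difference (2.96 to 3.25). Gnas, which encodes a stimulatory G protein subunit, had 454 CPM and 214 CPM, a 2.12-fold difference. Kcnq1ot1, a paternal non-coding RNA, was not called, with 203 CPM and 171 CPM. Peg10, Zim1, Ndn and Plagl1, named after their values were seen, passed the 20 CPM floor through region 1 alone and could not be called lower. Ndn, for example, had 72.6 CPM in region 1 and 15.3 CPM in the rest. The contrast of 9 called higher and none lower thus rests in part on these genes. Peg10 and Zim1 were 12.4-fold and 13.9-fold over the rest. Between the sections, 5 of 13 tested were called higher in brain and 1 lower, against 17.2% and 5.41% of all features. The 5 called higher reached 20 CPM in brain alone and could not have been called lower. Peg3 had a brain-to-heart ratio of 22.2 (20.2 to 24.5), Gnas of 1.80 and Kcnq1ot1 of 3.99. Genes that maintain imprints, such as Aff3, Dnmt3a and Zfp445, were not called in region 1 in any of 6 tested, nor between the sections in any of 5. With so few tested this is near the shares over all features, 3.07% higher and 4.43% lower in region 1 and 17.2% higher and 5.41% lower in brain.

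In heart Meg3 and Rian were highest in 1 region. Region 5, led by Mybphl, Prg4 and Dkk3, held 304 of the 3726 spots. Meg3 had 42.2 CPM (36.7 to 48.3) there and 9.08 CPM in the rest, a 4.65-fold difference (3.90 to 5.53), and Rian had 37.4 CPM (32.2 to 43.2) and 11.5 CPM, a 3.26-fold difference (2.73 to 3.87). Both were called higher, as were 9.57% of 5558 features in that region. Both passed the 20 CPM floor through region 5 alone and could not have been called lower. Mirg had 6.66 CPM there and 2.52 CPM in the rest, and was highest in region 4, led by Tent5c, Slc4a1 and Apol11b, with 8.38 CPM (5.19 to 12.8) there and 2.66 CPM in the rest. Mirg was called in no heart region, and all 5 neighbouring pairs in its order had overlapping intervals. Dlk1 had 2.63 CPM in region 5 and between 0.142 and 3.99 CPM in the other regions, on 1 to 29 counts each. The 3.99 CPM was in region 4, on 10 counts. In region 5 the atrial list summed to 986 CPM, against 21.7 to 228 CPM in the other heart regions, the fibroblast list to 854 CPM, against 169 to 376 CPM, and the pan-neuronal list to 283 CPM, against 129 to 473 CPM. Their part in the maternal levels was not tested.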

How the data were processed

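Total RNA was measured in 1 section of mouse brain and 1 of mouse heart. The deposited values are counts per feature and spot, aligned and counted by the authors with STARsolo against mm39, per the submitters' processing notes, with no version in the sources used here. Merging of molecular tags, introns and strand are not stated there. A GENCODE release 21 annotation (GRCm38) gave spans, strands and the order of features by gene ID for 35500 of 40276 features. RefSeq gave the sequences, and no coordinates were converted.

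Spots with at least 500 counts and 200 features were kept, and their counts were summed and scaled to 1000000 counts per section (CPM). Intervals at 95% are exact Poisson, binomial or, for ratios, conditional binomial. Features of at least 20 CPM in either group were tested by size, 4-fold between sections and 2-fold between a region and the rest. Thinning to 2800 counts per spot used a fixed seed. Regions came from scanpy 1.11.5 (2000 variable genes, 20 components, 15 neighbours, Leiden resolution 0.6), without the 235 listed genes, the locus and structured RNA. Doublets have no meaning for spots and were not called. Size factors from edgeR 4.0.16 and DESeq2 1.42.0 served as alternatives to the total. The ratio, thinning and grouping steps were tested on simulated data.

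Named were the 4 members, locus features of at least 20 counts, the 3 leading genes of a region, the 5 features most like each member, flanking genes and up to 3 genes of each list with the highest brain CPM. The members and lists were chosen with earlier results of these data known. Spot positions were not used.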

Additional observations from a re-analysis of the deposited data

How the results depend on the processing

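No paired analysis was possible because each tissue had 1 library. No other library can be left out either, for the same reason. Of the recomputed values that answer a comparison, 35 stayed within the main interval or, for a count, within 1.5 times the main one, 17 moved beyond that and none changed direction. The number of members called was 4, not 3, with a floor of 5 CPM and with no floor. Scaling to counts outside structured RNA moves the median brain-to-heart log2 ratio of 11925 features from 0.43 to -0.18, and it gave brain-to-heart ratios of 5.54 for Dlk1, 100.4 for Meg3, 22.1 for Rian and 10.9 for Mirg. With each spot weighed the same the ratio was 14 for Dlk1 and 188 for Meg3, and there were 162 maternal counts per Dlk1 count. Subtracting the receptor density, which takes most from the heart values, gave 24.5 for Dlk1, 193 for Meg3, 51.3 for Rian and 37.9 for Mirg. Without region 1, chosen after the data were seen, the ratio was 1.60 for Dlk1 and 134 for Meg3, with 1025 maternal counts per Dlk1 count. The Meg3 fold of region 1 was 1.88 at a resolution of 0.3, 2.07 with 10 principal components and 2.13 outside structured RNA, so only the coarser grouping ended its call. Across the same groupings and the stricter spot filter the Dlk1 fold lay between 25.4 and 33.9. Of the other recomputed values, 13 stayed within the main interval and 15 moved, mainly shares of spots, which depend on depth. The depth limits Dlk1 most, since region 12 had none of its counts and 10 other regions had 3 to 19 each.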

Other observations

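Long non-coding RNAs outside the locus did not follow 1 pattern. Of the 8 listed, 7 could be tested between the sections, 3 were called higher in brain and 1 lower, against 17.2% and 5.41% of all features. The 3 called higher reached 20 CPM in brain alone and could not have been called lower. Snhg11, a small nucleolar RNA host gene, had 577 CPM in brain and 0.941 CPM in heart, a ratio of 613 (453 to 850) that exceeded that of Meg3. Malat1, an abundant nuclear RNA, had 7141 CPM in brain and 5940 CPM in heart. In region 1, Snhg11 had 821 CPM there and 538 CPM in the rest, and Malat1 had 5422 CPM there and 7417 CPM in the rest, so neither met the 2-fold rule. Of 7 tested in region 1, 1 was called higher and 1 lower, against 3.07% and 4.43% of 6021 features. With so few tested, neither count stands apart from these shares. Rmst, named after its values were seen, had 179 CPM in region 1 and 35.7 CPM in the rest, a 5.03-fold difference that exceeded that of Meg3, and Pantr1, likewise named, had 14.02 CPM in region 1 and 41.3 CPM in the rest.

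Genes of the Notch pathway, to which Dlk1 is related, were measured in the same sections. Of the 16 listed, 5 could be tested between the sections and 3 in region 1, and none was called in either. With so few tested this is near the shares over all features, 17.2% higher and 5.41% lower in brain and 3.07% higher and 4.43% lower in region 1. Rbpj, the DNA-binding partner of Notch, had 49.6 CPM in brain and 77.9 CPM in heart. Jag1, a Notch ligand, had 37.3 CPM in brain and 19.6 CPM in heart. The receptor gene Notch2 had 28.4 CPM in brain and 45.0 CPM in heart. In region 1 they had 42.0, 32.7 and 22.4 CPM, against 50.9, 38.0 and 29.3 CPM in the rest.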
